A study of Bos taurus with 14 samples.

Results

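The miR-17, miR-18, miR-19 and miR-106 groups comprised 10 mature miRNAs, taken by name: bta-miR-17-5p, bta-miR-18a, bta-miR-18b, bta-miR-19a, bta-miR-19b, bta-miR-20a, bta-miR-20b, bta-miR-93, bta-miR-106a and bta-miR-106b. They were 10 of the 1030 mature names in the count table, 614 of which had a count in at least one heifer and 341 of which were retained with a CPM of 1 or more in at least 7 of the 14 heifers. CPM is a miRNA's count relative to the total count of its library. All 10 were found, and 9 of them were retained, while bta-miR-18b was not. The members were chosen by name and not by their values, although earlier results of these data were known by then.

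The study sequenced small RNA from peripheral white blood cells (PWBC) of 14 Angus-Simmental crossbred heifers, each a separate animal with 1 library, to ask whether miRNAs in blood at weaning differed between heifers of later differing fertility. The 7 fertile heifers (FH) became pregnant to artificial insemination (AI). The 7 subfertile heifers (SFH) were not pregnant to AI, nor after a later season with bulls per the study's methods. The animals carried no allele or treatment that set the groups apart in the labels, all were synchronised and inseminated after the blood was drawn, and the groups were matched by the study for age and body weight.

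These miRNAs are processed from 3 polycistronic precursors, which arose as copies of one another and are present across vertebrates. A mature miRNA guides the silencing complex to messenger RNAs that pair with its seed, the bases at its 5′ end, so that miRNAs with one seed share many targets. The miR-17-92 cluster is a target of the MYC oncogene, limits the pro-apoptotic factor BIM, and is needed for the development of B cells and the expansion of T cells. The seed of miR-17 is shared by 6 members (bta-miR-17-5p, bta-miR-20a, bta-miR-20b, bta-miR-93, bta-miR-106a and bta-miR-106b), that of miR-18 by 2 (bta-miR-18a and bta-miR-18b) and that of miR-19 by 2 (bta-miR-19a and bta-miR-19b).

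By cluster, miR-17-92 holds bta-miR-17-5p, bta-miR-18a, bta-miR-19a, bta-miR-20a and bta-miR-19b. The miR-106a-363 cluster holds bta-miR-106a, bta-miR-18b, bta-miR-20b and a second precursor of bta-miR-19b, and miR-106b-25 holds bta-miR-106b and bta-miR-93. All 11 precursor genes of the members were matched by symbol in RefSeq's ARS-UCD2.0 annotation, a later assembly than the one the reads were mapped to, so only gene neighbours are given. MIR106B, MIR93 and MIR25 overlap MCM7, a gene for a subunit of the helicase that unwinds DNA at replication, and lie between AP4M1 and COPS6. The precursors of miR-17-92 overlap no other annotated gene, with LOC101907906 on one side and GPC5 on the other. Those of miR-106a-363 lie on the X chromosome between GPC3 and CCDC160, again with no overlapping gene.

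Total miRNA counts were 1754971 to 5468341 per heifer (FH median 3319368, SFH median 2663375), so that 3 counts were worth 0.549 to 1.71 CPM. Scaling by trimmed mean of M-values (TMM) gave factors near 1 except in FH heifer 29, whose factor was 0.817. The labelled cell type was borne out by its markers. The lymphocyte miRNAs bta-miR-150 and bta-miR-342 together took 7.82% ± 1.99 of all counts (SD, n = 14), bta-miR-223 of myeloid cells took 1.84% ± 0.47, and the pan-leukocyte bta-miR-142-3p and bta-miR-142-5p took 1.24% ± 0.47. The red cell miRNAs bta-miR-451 and bta-miR-486 took 0.157% to 0.371% in FH and 0.146% to 0.923% in SFH, the highest in SFH heifer 30, while bta-miR-144, the partner of bta-miR-451, had 0 counts in every heifer. In bulk PWBC, fewer cells of a type and less RNA per cell cannot be told apart.

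The members spanned more than 3 orders of magnitude in level, and bta-miR-93 outweighed the other 9 together. On the TMM-scaled CPM scale, bta-miR-93 was at 7308 ± 905 CPM (SD, n = 14) and ranked 34 of the 341 retained miRNAs. It was followed by bta-miR-20a at 1371 ± 225, bta-miR-17-5p at 1188 ± 295 and bta-miR-106b at 925 ± 155 CPM. A lower tier was formed by bta-miR-19b at 245 ± 74.9, bta-miR-106a at 177 ± 92.7 and bta-miR-20b at 169 ± 55.1 CPM. The lowest were bta-miR-18a at 93.6 ± 31.6 and bta-miR-19a at 34.6 ± 29.4 CPM, and bta-miR-18b was at 1.91 ± 2.47 CPM, about the level of 3 counts. Ligation and amplification differ between miRNAs, so that levels of different miRNAs are not molar amounts.

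Several neighbours in this order did not differ beyond their spread over heifers. The level of bta-miR-93 was above that of bta-miR-20a in 14 of 14 heifers, by a mean log2 difference of 2.42 ± 0.27 (SD), and bta-miR-106b was above bta-miR-19b in 14 of 14, by 1.97 ± 0.59. In contrast, bta-miR-20a and bta-miR-17-5p were separated by a log2 difference of 0.22 ± 0.28, with bta-miR-20a higher in 10 of 14 heifers. The pairs bta-miR-17-5p and bta-miR-106b (0.34 ± 0.46), bta-miR-19b and bta-miR-106a (0.57 ± 0.84) and bta-miR-106a and bta-miR-20b (-0.02 ± 0.40) likewise overlapped. The step from bta-miR-20b to bta-miR-18a was 0.85 ± 0.84 and that from bta-miR-18a to bta-miR-19a was 1.65 ± 0.94.

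**Figure D1:**
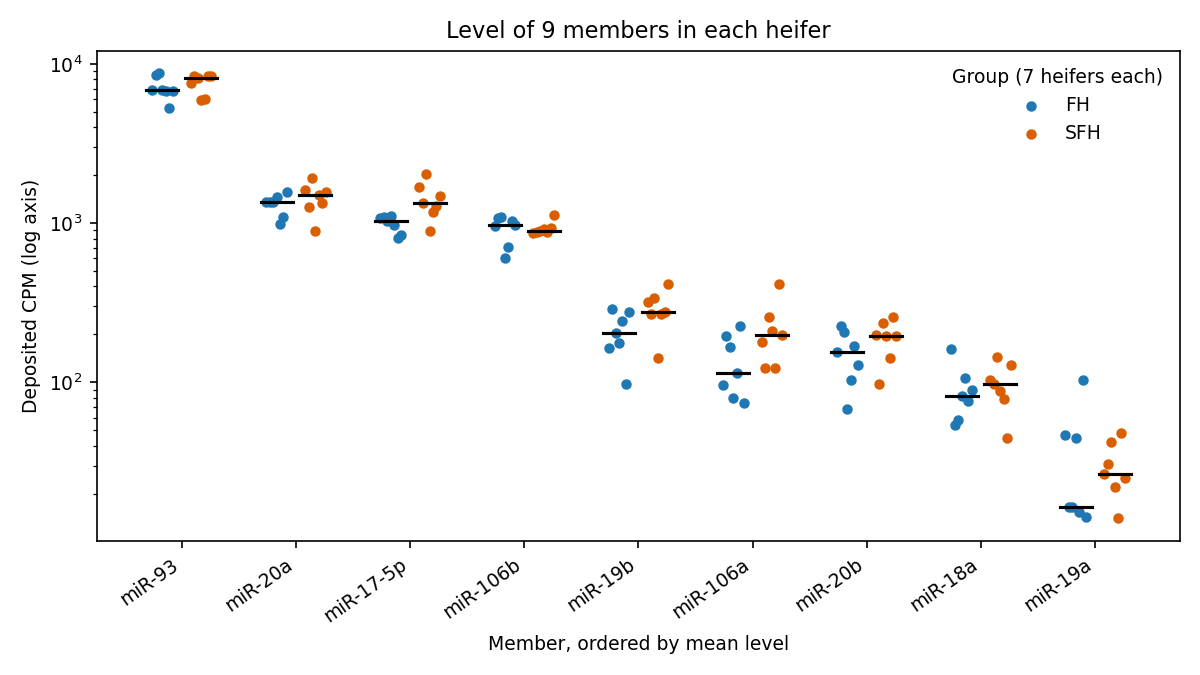
CPM of the 9 retained members in each heifer on a log axis, with FH in blue, SFH in orange and a black bar at the median of 7 heifers. The blue and orange points overlap for every member, and the 6 highest points of bta-miR-17-5p are SFH heifers.

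Together the 10 members took 1.10% ± 0.14 of all counts in FH (n = 7) and 1.22% ± 0.17 in SFH (n = 7), with the lowest share in FH heifer 29 (0.887%) and the highest in SFH heifer 23 (1.40%). Of the members' own counts, bta-miR-93 took 63.5% ± 3.3, bta-miR-20a 11.9% ± 1.8, bta-miR-17-5p 10.3% ± 1.9 and bta-miR-106b 8.10% ± 1.54. By cluster, miR-106b-25 members took 0.804% ± 0.125 of all counts in FH and 0.848% ± 0.114 in SFH. The miR-17-92 members took 0.263% ± 0.027 and 0.327% ± 0.077, and the miR-106a-363 members other than bta-miR-19b took 0.0288% ± 0.0106 and 0.0407% ± 0.0150. The ranges of FH and SFH overlapped for each of the 3 clusters.

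None of the 9 retained members passed the thresholds of the study (p-value at most 0.05, with a log2 fold change of 0.5 or more in either direction) in SFH relative to FH by edgeR's quasi-likelihood test, against 13 of all 341 miRNAs (3.81%). DESeq2 gave 0 of 9 members, against 16 of 341 (4.69%). At a p-value of at most 0.05 with any fold change, 1 member passed, bta-miR-17-5p, against 20 of 341 (5.87%). After Benjamini-Hochberg adjustment over the 341 miRNAs, 0 members and 0 of 341 (0%) passed, and no member had groups that did not overlap, which was also the case for all 341 (0%). The log2 fold change was above 0 for 7 of the 9 members, with a median of 0.07, beside 188 of 341 and a median of 0.06 over all miRNAs tested.

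The member with the smallest p-value was bta-miR-17-5p, the founding miRNA of its seed family. It was at 804 CPM in the lowest, 1035 in the median and 1104 in the highest FH heifer, and at 894, 1331 and 2021 CPM in SFH. Of the 7 SFH heifers, 6 were above every FH heifer, and SFH heifer 26 lay within the FH range. The log2 fold change in SFH was 0.43 (SE 0.18, 95% interval 0.07 to 0.80, n = 7 per group), with p = 0.0233 and adjusted p = 0.661 by edgeR, a rank of 12 among the 341, and p = 0.0128 by the exact two-sided permutation test over the heifers. The fold change was below 0.5, and it reached the thresholds with library totals alone (0.51), with upper quartile scaling (0.50) or without SFH heifer 26 (0.51). Without SFH heifer 23, the highest, it was 0.33, and without FH heifer 31 it was 0.39, both no longer at a p-value of at most 0.05.

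Its clustermate bta-miR-20a, which has the same seed, was at 994, 1357 and 1566 CPM in the lowest, median and highest FH heifer and at 888, 1502 and 1932 CPM in SFH. The SFH range enclosed the FH range. In SFH relative to FH its log2 fold change was 0.07 (SE 0.17, interval -0.29 to 0.42, edgeR adjusted p = 0.977).

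For the miR-19 seed, the better measured member was bta-miR-19b. It was at 97.7, 204 and 289 CPM (lowest, median and highest) in FH and at 141, 278 and 417 CPM in SFH. Of the 7 SFH heifers, 3 were above every FH heifer, and the ranges overlapped. With a log2 fold change of 0.43 (SE 0.26, interval -0.11 to 0.98), it had an edgeR p = 0.111, an adjusted p = 0.890 and an exact permutation p = 0.0950. Without SFH heifer 26 the fold change was 0.55, past the thresholds. Its 2 precursors are listed separately with nearly the same counts, identical in 4 heifers and at most 95 counts apart, so that the cluster its reads came from cannot be told apart.

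The other miR-19 member, bta-miR-19a, was at 14.2, 16.5 and 104 CPM in FH and 14.0, 26.7 and 47.8 CPM in SFH. The highest value was that of FH heifer 29 and lay outside the range of the other 13 heifers. Its log2 fold change was -0.46 (SE 0.58, interval -1.66 to 0.74, edgeR adjusted p = 0.947) with this heifer and 0.17 without it. In the same heifer bta-miR-19b was at its lowest, so that bta-miR-19a made up 51.5% of the counts of both, against a median of 9.02% over the 14 heifers.

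For the miR-18 seed, bta-miR-18a was at 53.6, 82.2 and 162 CPM in FH and 44.98, 98.0 and 144 CPM in SFH. The ranges overlapped nearly in full, and the log2 fold change was 0.05 (SE 0.34, interval -0.67 to 0.76, edgeR adjusted p = 0.977). Its counterpart on the X chromosome, bta-miR-18b, had 96 counts over the 14 heifers and none in 7 of them. It reached 1 CPM in 6 heifers, 1 short of the 7 needed to be tested. In FH it had 26 counts in heifer 27, 19 in heifer 31 and 0 in the other 5. In SFH it had 5, 6, 1, 0, 19, 20 and 0 counts in heifers 17, 21, 23, 26, 28, 30 and 32, and no fold change is given at this depth.

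In the miR-106a-363 cluster, bta-miR-106a was at 73.8, 115 and 226 CPM in FH and 123, 199 and 416 CPM in SFH. Of the 7 FH heifers, 4 lay under the lowest SFH heifer, and SFH heifers 23 and 30 were above every FH heifer. After TMM scaling, SFH heifer 23 (245 CPM) lay below FH heifer 29 (277 CPM). With all heifers, the log2 fold change of 0.57 was the largest of the members (SE 0.35, interval -0.16 to 1.29) and had p = 0.117 and adjusted p = 0.890 by edgeR and p = 0.114 by the exact permutation test. Without FH heifer 29 it was 0.79, past the thresholds, and without SFH heifer 30 it was 0.31. SFH heifer 30, the highest for bta-miR-106a, was also the highest for bta-miR-451 of red cells (7068 CPM). Over the 14 heifers, Pearson's r of log2 levels between bta-miR-106a and bta-miR-451 was 0.31 (Spearman's rho = 0.11, permutation p = 0.275 and 0.717). It was -0.11 in FH and 0.46 in SFH. With bta-miR-486, also of red cells, r was -0.26 (rho = -0.35, permutation p = 0.371 and 0.215). The part of red cells in the level of bta-miR-106a was not tested.

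Its clustermate bta-miR-20b was at 68.1, 155 and 225 CPM in FH and 98.0, 196 and 259 CPM in SFH. The lowest value was that of FH heifer 25 and the highest that of SFH heifer 30, with overlapping ranges. Here the log2 fold change was 0.26 (SE 0.30, interval -0.36 to 0.88, edgeR adjusted p = 0.947), and it was 0.13 without FH heifer 25, 0.15 without SFH heifer 30 and 0.37 without SFH heifer 21.

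By the SD of log2 levels over the 14 heifers, the members encoded within MCM7 were the steadiest. At 5260, 6843 and 8767 CPM in FH and 5973, 8181 and 8399 CPM in SFH, bta-miR-93 had a log2 fold change of 0.02 (SE 0.14, interval -0.27 to 0.31, edgeR adjusted p = 0.977), and the ranges overlapped. At 608, 974 and 1086 CPM in FH and 866, 897 and 1118 CPM in SFH, bta-miR-106b had a log2 fold change of -0.07 (SE 0.18, interval -0.44 to 0.30, edgeR adjusted p = 0.977). The 2 lowest bta-miR-106b values were those of FH heifers 25 and 27, and the highest was that of SFH heifer 32, whereas after TMM scaling FH heifer 29 was the highest at 1271 CPM. Ranked from the steadiest by the SD of their log2 levels over the 14 heifers, bta-miR-93 was 4, bta-miR-106b 7 and bta-miR-20a 9 of the 341. Within groups this order did not always hold. The coefficient of variation on the TMM scale was 22.6% in FH and 7.81% in SFH for bta-miR-106b, beside 11.9% and 20.5% for bta-miR-20a. The median coefficient of variation was 30.6% for the 9 members and 56.5% for all 341, which include many miRNAs of lower counts. The intervals bound the differences accordingly, since 7 of the 9 lay within a log2 fold change of 1 in both directions, beside 125 of 341.

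**Figure D2:**
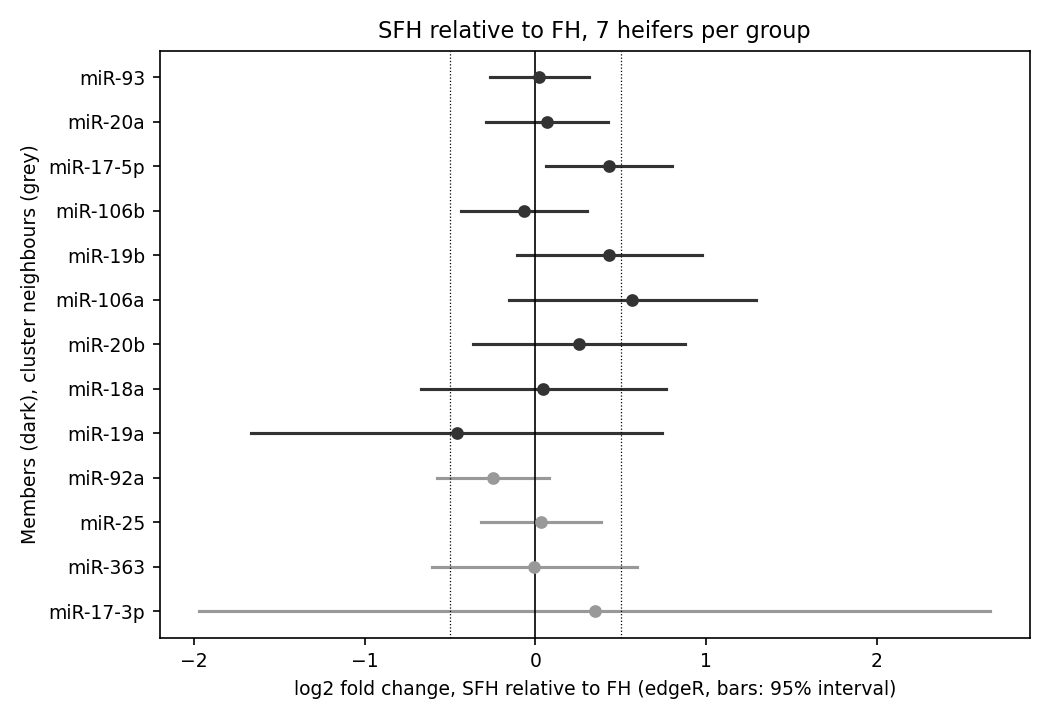
log2 fold change in SFH relative to FH (points) with its 95% interval (bars) from edgeR, for the 9 retained members (dark) and 4 other miRNAs of the same clusters (grey), with dotted lines at the threshold of 0.5 in both directions. The interval of bta-miR-17-5p, 0.07 to 0.80, is the one interval that does not cover 0.

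Of the other miRNAs of the 3 clusters, 0 of 4 passed the thresholds. One precursor of bta-miR-92a lies in miR-17-92 and another in miR-106a-363, and only the listing with the higher total was used. At 33309 CPM (TMM) in FH and 28024 in SFH, bta-miR-92a had a log2 fold change of -0.25 (SE 0.16, interval -0.58 to 0.08, edgeR adjusted p = 0.890). The values were 0.03 for bta-miR-25, -0.01 for bta-miR-363 and 0.35 with an SE of 1.11 for bta-miR-17-3p. The passenger arm bta-miR-17-3p took 1.40% ± 1.33 (n = 14) of the counts of both arms of its hairpin and had no count in 3 heifers. The 4 mature miRNAs of the miR-302 group, which is abundant in pluripotent cells and has a seed close to that of miR-17, had 0 counts in all 14 heifers. Of the blood cell markers with counts, 0 of 10 passed the thresholds, and markers of one cell type did not all have the same sign. The log2 fold changes were 0.39 for bta-miR-142-5p and -0.15 for bta-miR-142-3p, -0.08 for bta-miR-150 and -0.14 for bta-miR-342, and 0.22 for bta-miR-223. They were 0.72 for bta-miR-451 and -0.05 for bta-miR-486 of red cells, and -0.35 for bta-miR-126-3p, -1.47 for bta-miR-126-5p and 0.78 for bta-miR-199a-3p of platelets and endothelium.

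Although bta-miR-17-5p and bta-miR-20a come from one precursor, their ratio was not constant. In FH the ratio of raw counts was 0.534 in the lowest, 0.764 in the median and 0.984 in the highest heifer, and in SFH it was 0.777, 1.01 and 1.05. Of the 7 SFH heifers, 4 were above every FH heifer, and 4 of the FH heifers lay under the lowest SFH heifer. The mean log2 ratio was higher in SFH by 0.36 (exact two-sided permutation p = 0.00932, n = 7 per group). This ratio was looked at after its values were seen, and among the 57970 ratios that the 341 miRNAs allow, 6.8% reached an exact p of at most 0.05 and none passed adjustment (adjusted p = 0.694 for this one). Of the 36 ratios between retained members, 2 reached an exact p of at most 0.05, this one and bta-miR-17-5p to bta-miR-93 (log2 difference 0.39, p = 0.0122). Both have bta-miR-17-5p as numerator. With the clustermate bta-miR-92a, the log2 ratio of bta-miR-17-5p differed more, by 0.67 (exact permutation p = 0.00291, adjusted p = 0.694). The ratios of bta-miR-19b (0.70, exact permutation p = 0.0321) and bta-miR-106a (0.86, exact permutation p = 0.0490) to bta-miR-92a also reached 0.05. Those of bta-miR-18a, bta-miR-19a, bta-miR-20a and bta-miR-20b to bta-miR-92a did not.

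The ratios between other members within clusters varied as much. That of bta-miR-106a to bta-miR-20b was 0.576 to 1.34 in FH and 0.874 to 1.61 in SFH, and that of bta-miR-93 to bta-miR-106b was 5.06 to 11.3 in FH and 6.52 to 9.56 in SFH. The widest was bta-miR-19b to bta-miR-19a, from 0.942 in FH heifer 29 to 19.4 in FH heifer 31. The exact permutation p of the log2 ratio between groups was 0.172, 0.735 and 0.485 in that order of pairs.

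**Figure D3:**
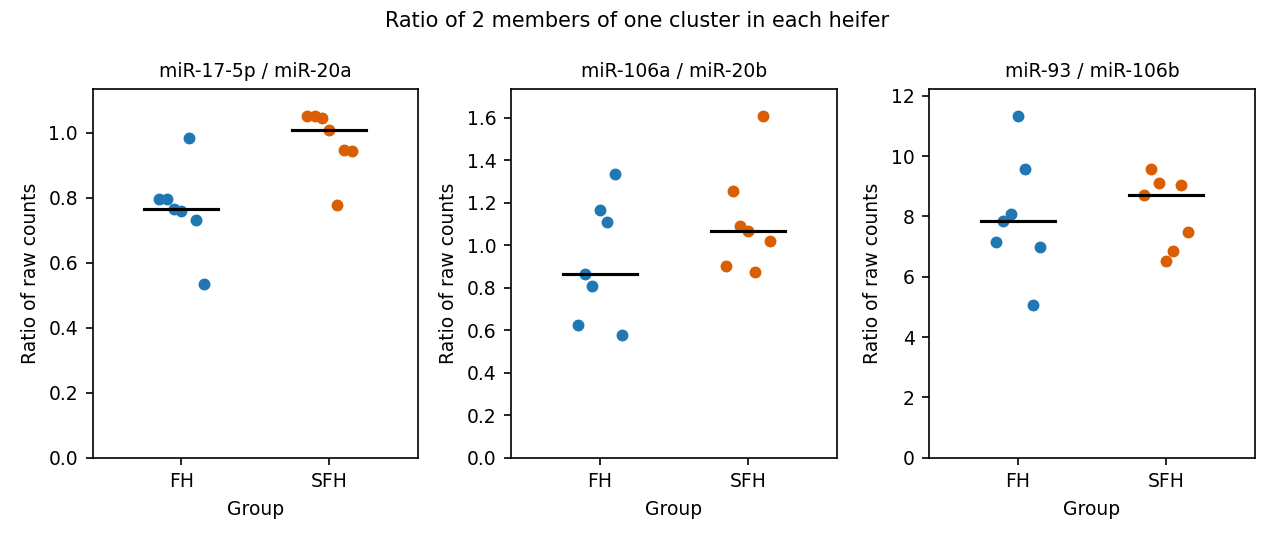
Ratio of raw counts of 2 members of one cluster in each heifer, with FH in blue, SFH in orange and a black bar at the median of 7 heifers. For bta-miR-17-5p to bta-miR-20a, 4 SFH heifers lie above 1 and no FH heifer does, while the other 2 ratios overlap widely.

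Members of one cluster did not rise and fall together across heifers as a rule. Over the 17 pairs within a cluster the median Pearson's r of log2 levels was 0.17, beside 0.04 over the 28 pairs from different clusters and 0.01 over all 57970 pairs of retained miRNAs. Without bta-miR-18b, which had no count in 7 heifers, the medians were 0.19 over 14 pairs within a cluster and 0.16 over 22 pairs from different clusters. With bta-miR-18b, the median within a cluster was -0.19 in FH and 0.22 in SFH. Over the 17 pairs with a shared seed it was 0.21 in all heifers. All of these are medians over pairs that share libraries and members, with no test.

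Of the 45 pairs, 4 had a permutation p of at most 0.05 and 1 passed adjustment over the 45, bta-miR-106a with bta-miR-20b. Their log2 levels correlated with r = 0.82 (n = 14, permutation p = 0.000230, adjusted p = 0.0103) and rho = 0.88 (permutation p = 0.000150, adjusted p = 0.00675). Leaving out the 2 heifers farthest from the bta-miR-106a median gave 0.84, and r was 0.76 within FH and 0.88 within SFH. Without SFH heifer 30, the highest in both, r was 0.80 and the adjusted permutation p was 0.0504. Both come from one precursor and have one seed, and the part of reads that could be assigned to either was not tested. With the log2 total count, r was -0.05 for bta-miR-106a (rho = -0.12, permutation p = 0.871 and 0.680, r = -0.16 in FH and 0.49 in SFH). For bta-miR-20b it was -0.41 (rho = -0.28, permutation p = 0.148 and 0.325, r = -0.65 in FH and 0.25 in SFH), and the part of depth in the correlation was not tested.

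Other pairs were less steady. The level of bta-miR-17-5p correlated with that of bta-miR-19b by rank (rho = 0.76, permutation p = 0.00205, adjusted p = 0.0461) but not by r after adjustment (r = 0.58, permutation p = 0.0274, adjusted p = 0.378), and r was -0.31 within FH and 0.78 within SFH. For bta-miR-17-5p and bta-miR-20a r was 0.58 (rho = 0.49, permutation p = 0.0336 and 0.0824, adjusted p = 0.378 for r), with 0.29 after leaving out 2 heifers, -0.20 within FH and 0.89 within SFH. For bta-miR-20b and bta-miR-106b of different clusters r was 0.68 (permutation p = 0.00703, adjusted p = 0.158, rho = 0.47), with 0.94 in FH and 0.17 in SFH. The difference in r between the groups was not tested for any pair. In contrast, bta-miR-93 and bta-miR-106b, both within MCM7, had an r of 0.08 (rho = 0.13, permutation p = 0.790 and 0.673).

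**Figure D4:**
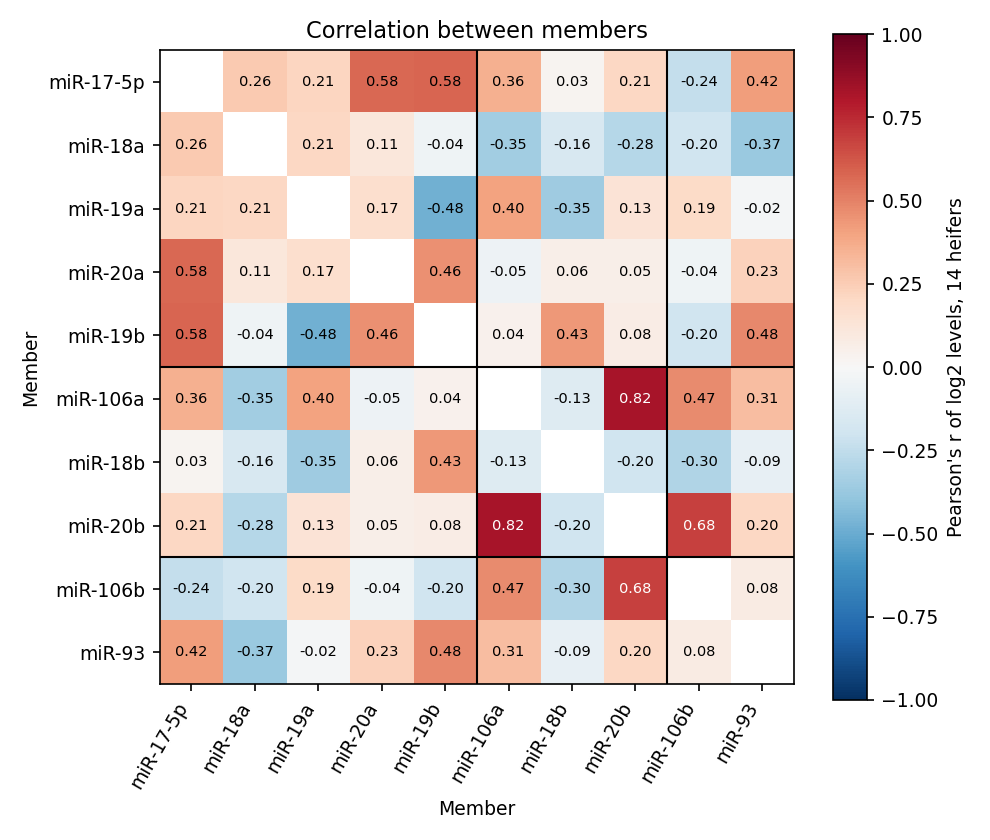
Pearson's r of log2 levels over 14 heifers for each of the 45 pairs of members, with black lines between the clusters miR-17-92, miR-106a-363 and miR-106b-25. The one pair past adjustment, bta-miR-106a with bta-miR-20b, has an r of 0.82, and most cells inside a cluster are pale.

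Of 150 further correlations, between the 10 members and the other cluster miRNAs, the blood cell markers and depth, 18 had a permutation p of at most 0.05 and 1 passed adjustment. The level of bta-miR-19b correlated with that of bta-miR-199a-3p, a miRNA of platelets and mesenchymal cells, with r = 0.88 (n = 14, permutation p = 0.0001, adjusted p = 0.0150). By rank it was lower (rho = 0.64, permutation p = 0.0176, adjusted p = 0.453), and r was 0.73 without 2 heifers, 0.96 in FH and 0.77 in SFH. The other 2 markers of platelets and endothelium had r = -0.25 for bta-miR-126-3p (rho = -0.31, permutation p = 0.397 and 0.275) and r = 0.11 for bta-miR-126-5p (rho = -0.04, permutation p = 0.700 and 0.902). The lowest bta-miR-199a-3p value was 0, in FH heifer 29 alone, where bta-miR-19b was also lowest, and the highest was 76.5 CPM. For bta-miR-19a and bta-miR-199a-3p r was -0.64 (rho = -0.34, permutation p = 0.0139 and 0.233, adjusted p = 0.273 for r), with -0.98 in FH and 0.30 in SFH. Within MCM7, bta-miR-93 and bta-miR-25 had an r of 0.72 (rho = 0.64, permutation p = 0.00362 and 0.0168, adjusted p = 0.164 for r). With the opposite sign, bta-miR-18a of another cluster had an r of -0.72 with bta-miR-25 (rho = -0.57, permutation p = 0.00370 and 0.0346, adjusted p = 0.164 for r). The level of bta-miR-19a had an r of 0.70 with that of the myeloid bta-miR-223 (rho = 0.74, permutation p = 0.00438 and 0.00317, adjusted p = 0.164 for r). The part of cell composition in these levels was not tested.

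Heifers differed in how many members stood above their mean level. In SFH heifers 23, 30 and 32, 8 of the 9 retained members were above the mean of all heifers, whereas in FH heifers 25 and 27, 2 of 9 were. The lowest for bta-miR-17-5p and bta-miR-106a on the TMM scale was FH heifer 31, while SFH heifer 26 was the lowest for bta-miR-20a and had the lowest member share in its group (0.933% of all counts). The numbers were 2 to 5 of 9 over the FH heifers and 3 to 8 of 9 over the SFH heifers, with overlapping ranges.

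**Figure D5:**
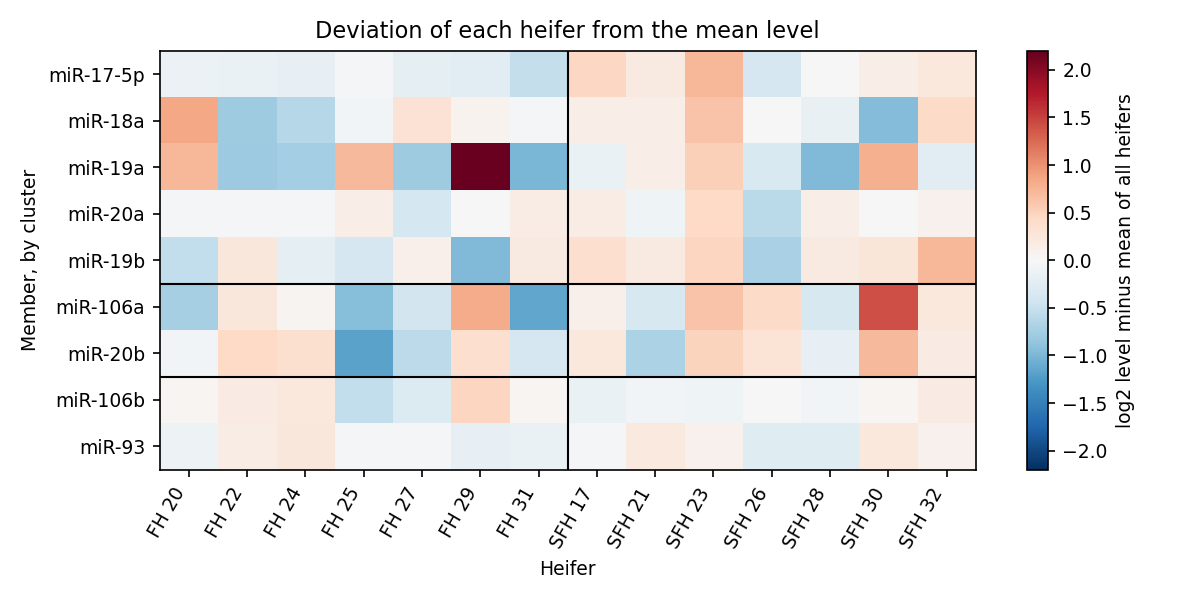
log2 level of the 9 retained members in each heifer minus the mean over the 14 heifers (red above, blue below), with lines between the groups and between the 3 clusters. The darkest cell is bta-miR-19a in FH heifer 29, and SFH heifer 23 is above the mean in 8 of 9 members.

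The 5 miRNAs outside the clusters most like the mean log2 level of the 10 members, by Pearson's r over the 14 heifers among 328 miRNAs, were bta-miR-10225a (0.71), bta-miR-379 (0.67), bta-miR-147 (0.64), bta-miR-451 (0.61) and bta-miR-361 (0.56). The 5 least like it were bta-miR-125a (-0.70), bta-miR-2478 (-0.64), bta-miR-2285ce (-0.62), bta-miR-2448-3p (-0.57) and bta-miR-211 (-0.57). For bta-miR-2478, whose log2 fold change was -0.78 (edgeR adjusted p = 0.161), r was 0.23 within FH and -0.67 within SFH. The others kept their sign in both groups. At 3.37 ± 5.07 CPM (SD, n = 14), bta-miR-379 had an r of 0.16 within FH and 0.64 within SFH. These lists turned on bta-miR-18b, the member with 96 counts. Without it the 5 highest were bta-miR-345-3p (0.64), bta-miR-12003 (0.62), bta-miR-223 (0.61), bta-miR-15a (0.57) and bta-miR-6119-5p (0.55), which share 0 of 5 with the first list, and the 5 lowest shared 1 of 5.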

How the data were processed

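The authors sequenced small RNA libraries (NEXTflex v3) as single-end reads, trimmed the 3′ adapter and 4 bases from each end with Cutadapt, and counted reads with miRDeep2 against ARS-UCD1.2 and miRBase, allowing no mismatch in the seed. How reads that fit several members were assigned is not given in the sources used here. The deposited counts are raw read counts per mature miRNA and precursor listing, and the deposited CPM values were made by the authors with edgeR 3.28.1 over the 341 miRNAs with at least 1 CPM in at least 7 heifers. Counts were made without molecular identifiers as far as the sources say. Groups were taken from the labels.

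One listing per mature name, that with the highest total, was kept. The 341 miRNAs were fitted together in edgeR 4.0.16 (TMM, quasi-likelihood test, group alone), with Benjamini-Hochberg adjustment over 341. The thresholds and filter are those of the study, which used DESeq2. DESeq2 1.42.0 and limma 3.58.1 were alternatives. Exact permutation tests over the heifers and correlations used log2(TMM CPM + 0.5), with 100000 permutations for correlations. Tests were checked on simulated data. The depth per heifer was 1754971 to 5468341 counts. Intervals in the text come from the spread between heifers, as edgeR's quasi-likelihood fit moderates it over the 341 miRNAs.

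The named miRNAs were the 10 members, 4 other miRNAs of the clusters, the miR-302 group, the 5 most and 5 least like the members' mean, and blood cell markers (leukocytes, lymphocytes, myeloid cells, red cells, and platelets and endothelium). A further search for miRNAs with a member's seed and the display of sequences were not made, since no sequence table was used here. The members, lists and tests were chosen with earlier results of these data known.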

Additional observations from a re-analysis of the deposited data

Results flagged for a closer look

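Of 30 groups of 7 heifers examined (members' CPM and some of the ratios within clusters), 3 held a heifer whose gap to the others was larger than Dixon's 95% critical value, where chance gives about 5% of groups (1 in 20). The ratio of bta-miR-17-5p to bta-miR-18a was not among those examined. In SFH it was 28.3 in heifer 30, with the next at 16.2. In FH, bta-miR-19a was at 103.7 CPM in heifer 29, with the next at 47.0 CPM. In SFH, bta-miR-106b was at 1118 CPM in heifer 32, with the next at 929 CPM. After TMM scaling these values were 1035 and 939 CPM, and the gap was not examined on that scale. In SFH, the ratio of bta-miR-17-5p to bta-miR-20a was 0.777 in heifer 28, with the next at 0.942.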

How the results depend on the processing

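The number of miRNAs past the thresholds was 13 of 341. It was 20 of 434 with every precursor listing kept, 23 with limma-voom, 126 of 614 with no CPM filter, 20 at any fold change and 0 after Benjamini-Hochberg adjustment, and leaving out each heifer gave 11 to 22 (22 without FH heifer 24 and 20 without SFH heifer 26). The number of members past them was 0, and 1 with library totals, upper quartile scaling or any fold change (bta-miR-17-5p each time). Leaving out each heifer gave 0 to 2, with bta-miR-106a past them without FH heifer 29, and bta-miR-17-5p and bta-miR-19b without SFH heifer 26. With every listing kept, bta-miR-17-5p (log2 fold change 0.36) no longer had a p-value of at most 0.05. The number of correlated pairs was 1, 2 with Spearman's rho, and 0 to 1 on leaving out each heifer (0 without SFH heifer 30). Of 226 alternative log2 fold changes of the members, 206 kept their direction and side of the p threshold and 15 changed sign, all of them near 0 except that of bta-miR-19a. With every listing kept they were -0.035 for bta-miR-18a, -0.0019 for bta-miR-20a and -0.043 for bta-miR-93. They were -0.049 for bta-miR-18a with limma-voom, 0.0068 for bta-miR-106b with library totals and -0.019 for bta-miR-93 with at least 1 CPM in all 14 heifers. Leaving out each heifer gave -0.064 to 0.23 for bta-miR-18a, -0.63 to 0.17 for bta-miR-19a, -0.0096 to 0.15 for bta-miR-20a and -0.023 to 0.072 for bta-miR-93. It gave 0.31 to 0.79 for bta-miR-106a, 0.13 to 0.37 for bta-miR-20b, 0.31 to 0.55 for bta-miR-19b, 0.33 to 0.51 for bta-miR-17-5p and -0.15 to -0.0058 for bta-miR-106b, with no change of sign. The cause of these changes was not tested. The ratio of bta-miR-17-5p to bta-miR-20a, an alternative set chosen after the values were seen, kept a log2 difference of 0.27 to 0.42 without each heifer. The order of the 10 members was the same with summed listings and with deposited CPM. No paired analysis was possible because the groups share no replicate numbers. Depth limits bta-miR-18b, with none or few counts per heifer.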
